A study of Mus musculus with 16 samples.

Results

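Ferroptosis is a form of regulated cell death driven by iron-dependent peroxidation of polyunsaturated acyl chains in membrane phospholipids. Acyl-CoA synthetases activate the fatty acids, acyltransferases build them into phospholipids, oxidoreductases can feed the peroxidation, and reduced coenzyme Q traps lipid radicals in membranes beside the glutathione peroxidase Gpx4. The liver holds much of the body's fatty acid and cytochrome P450 metabolism, and it is a main site of Cd accumulation.

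The lipid peroxidation arm of ferroptosis was read from 10 genes, chosen by symbol from the 57010 genes of a table of TPM, a level corrected for gene length and scaled to each library's total: Acsl3, Acsl4, Lpcat3, Aifm2, Dhodh, Sat1, Sat2, Por, Vdac2 and Vdac3. The 10 were chosen with earlier results of these data known, so their share of calls beside that of all genes only describes them. All 10 were among the 11766 genes that averaged 1 TPM or more over the libraries and were tested. Livers of 16 wild-type male C57BL/6J mice were sequenced, 4 per group. The study's methods give the mice an age of 8-12 weeks, and its treatment scheme starts the 3-month diet at 8 weeks. The age at which the livers were taken is not given. Control mice were untreated as far as the labels say, Cd mice received CdCl2 intraperitoneally at 1.25 mg/kg daily for 7 days, Se mice ate selenomethionine (SeMet, an organic form of Se) at 2 ppm for 3 months, and Cd+Se mice received both, with Cd in the last 7 days. Whether mice without Cd were given a vehicle injection is not stated in the labels. Fold changes are log2 differences of TPM + 1 from limma, with a standard error (SE). The p was Benjamini-Hochberg adjusted over all genes tested, and a gene was called past 0.05. The spread of a gene was estimated over all 4 groups, so mice outside a comparison also enter its SE and p. TPM keep no depth, so the depth behind each value is unknown.

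The metallothionein gene Mt1, which metals induce, averaged 116 TPM in the control group, 4066 in Cd, 261 in Se and 4880 in Cd+Se, and its lowest level in a mouse given Cd was 3178 TPM against a highest of 431 TPM in a mouse given none. Some libraries stood apart. Cd mouse 5 had the highest mitochondrial share of TPM in its group (22.2%) and was the lowest Cd mouse in 8 of the 10 genes. That share was 12.8-22.2% in Cd mice and 16.4-17.3% in controls. Control mouse 27 was the highest of its group in 7 of the 10 genes. Se mouse 40 was the highest of its group in 9 of the 10 genes. Cd+Se mouse 15 had the highest Por and Aifm2 levels of its group. Calls of the 10 genes that changed without 1 of these mice are given with and without it. The samples are bulk tissue, so fewer cells of a type and less RNA per cell cannot be told apart.

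Of the 10 genes, 5 fell (Por, Acsl4, Aifm2, Dhodh, Vdac2), 1 rose (Acsl3) and 4 did not pass the test in Cd against control. Over all genes tested, 30.8% passed in that comparison. The median log2 fold change was -0.26 for the 10 genes and -0.17 for all genes tested, and without Cd mouse 5 they were -0.16 and -0.09. When each library was centred on its median, 4 of the 10 genes rose (Acsl3, Lpcat3, Sat1, Sat2) and 1 fell (Por), and after quantile normalization 2 rose (Acsl3, Sat2) and 3 fell (Por, Acsl4, Vdac2). Por and Acsl3 were the members called under all 3 scalings. With no filter on low values, 2 members were called (Por and Vdac2). In Cd+Se against Cd, which shares the Cd mice, 2 of the 10 genes rose (Por, Acsl4) and none fell, against 15.9% of all genes called. Those 1876 genes became 767 without Cd mouse 5 and 712 without Cd+Se mouse 14, and Por was then the 1 member called in each. Fitted on the Cd and Cd+Se mice alone, 66 genes and 0 members were called.

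**Figure D1:**
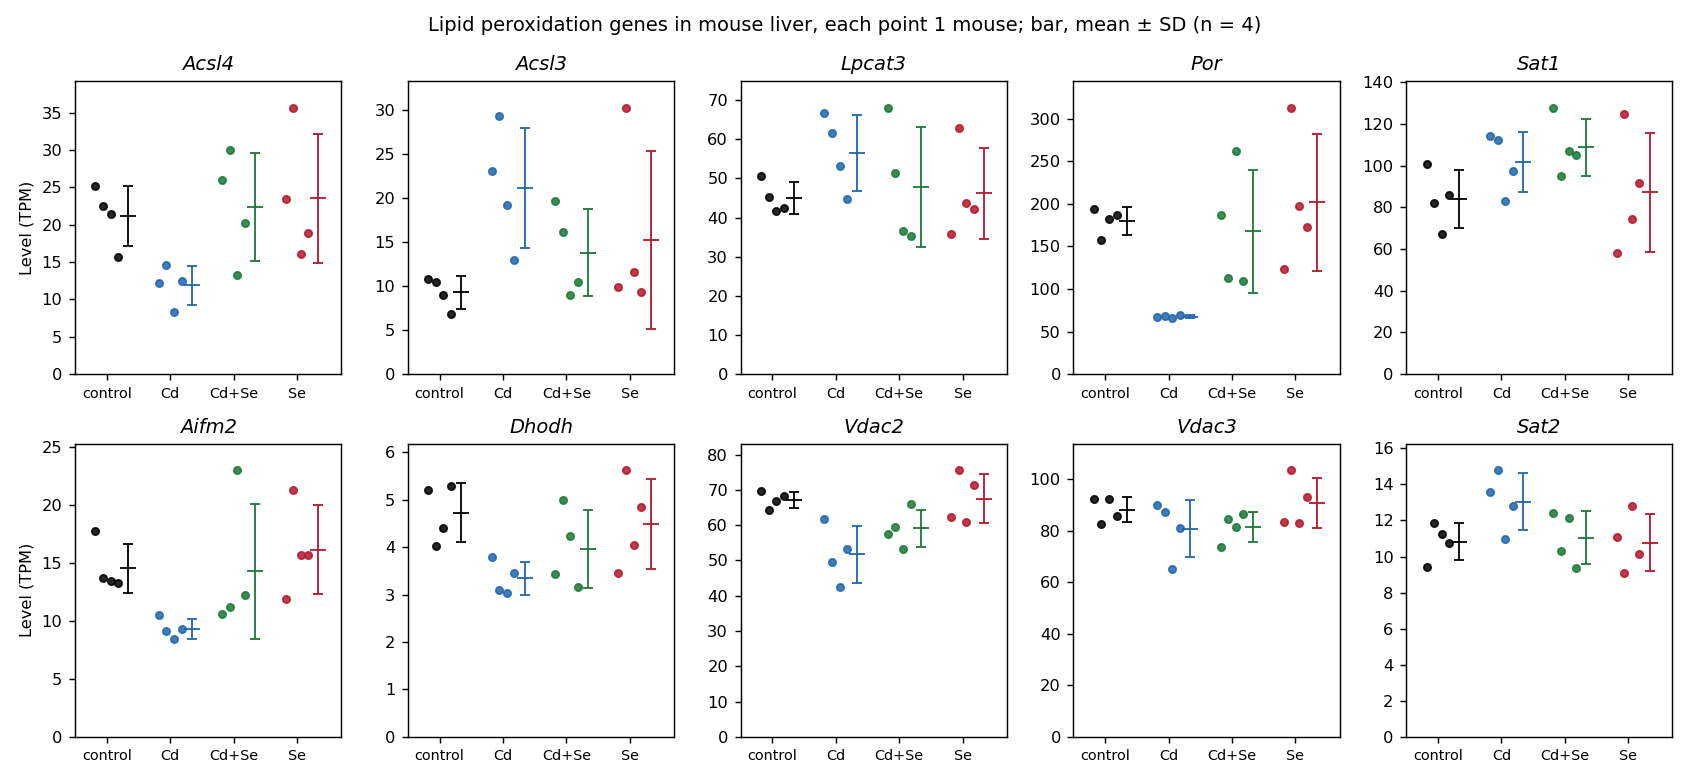
Level in TPM (y axis, from 0) of each of the 10 genes by group (x axis); each point is 1 mouse and the bar is the mean ± SD of 4 mice. The 4 Cd mice lie between 65.87 and 69.64 TPM for Por, below every other mouse, and above every control mouse for Acsl3.

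Por encodes the reductase that passes electrons from NADPH to the cytochromes P450 of the endoplasmic reticulum. It lies on the + strand of chromosome 5 (chr5:135670033-135735326, GRCm38). Its levels were 194.35, 157.17, 182.09 and 186.67 TPM in control mice and 66.92, 68.20, 65.87 and 69.64 TPM in Cd mice. The groups did not overlap, and the Cd mice lay within 4 TPM of each other. The mean was 67.7 ± 1.63 TPM in Cd and 180 ± 16.1 TPM in controls (SD, n = 4), a ratio of 0.376. This was a log2 fold change of -1.39 (SE 0.264, limma adjusted p 0.00146). Leaving out any 1 mouse kept it between -1.46 and -1.36.

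In Cd+Se mice Por was 186.89, 112.71, 262.25 and 109.73 TPM, every one above every Cd mouse. These 4 mice were spread over a wide range, with 2 near 110 TPM and mouse 15 above all controls. Against Cd the difference was 1.20 on the log2 scale (SE 0.264, limma adjusted p 0.0117), and 0.96 without mouse 15, the smallest value when 1 mouse was left out. That SE rests on the spread of all 4 groups, though Por had an SD of 1.63 TPM in Cd and 72.3 TPM in Cd+Se. Fitted on the Cd and Cd+Se mice alone, the limma adjusted p was 0.0562. In Se mice Por was 123.78, 313.10, 197.45 and 172.74 TPM, a range that held all 4 controls. The interaction asks whether Cd changed Por differently with Se in the diet than without. It was 1.12 on the log2 scale (SE 0.373, limma adjusted p 0.117). Without Se mouse 40 it was 1.35 (limma adjusted p 0.0438). Over the 16 fits that each left out 1 mouse it lay between 0.87 and 1.35, and 15 of them did not pass.

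Acsl4 and Acsl3 encode long-chain acyl-CoA synthetases. Acsl4 prefers polyunsaturated fatty acids such as arachidonic acid and is a well known promoter of ferroptosis, while Acsl3 activates other unsaturated fatty acids and supports lipid droplet formation. They moved in opposite directions in Cd mice. The 250 bases before the start of each gene are shown because this pair diverged; the sequences are RefSeq's, on GRCm38.p6, for Acsl3 on the + strand (chr1:78657575-78657824) and Acsl4 on the - strand (chrX:142390536-142390785). Capitals mark a match to the core of the metal response element (TGCACNC or TGCGCNC, either strand), the motif through which metals act on metallothionein genes.
Acsl3: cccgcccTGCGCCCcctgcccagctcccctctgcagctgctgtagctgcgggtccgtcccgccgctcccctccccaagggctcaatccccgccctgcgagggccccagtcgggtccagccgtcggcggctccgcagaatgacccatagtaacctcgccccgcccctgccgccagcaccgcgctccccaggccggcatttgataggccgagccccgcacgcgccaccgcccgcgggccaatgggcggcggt
Acsl4: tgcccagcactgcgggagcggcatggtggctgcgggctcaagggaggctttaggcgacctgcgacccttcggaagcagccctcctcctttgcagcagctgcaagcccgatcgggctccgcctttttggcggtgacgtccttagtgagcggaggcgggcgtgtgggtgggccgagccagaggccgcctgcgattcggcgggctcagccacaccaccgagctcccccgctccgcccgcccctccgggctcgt
The Acsl3 window held 1 match, with its first base at -243 from the start, and the Acsl4 window held none. Of all 32851 RefSeq promoter windows of the same length, 21.4% held at least 1 match. A promoter entry was matched for 7 of the 10 genes, and 3 of the 7 (Acsl3, Lpcat3, Por) held a match, while none of the 7 held the core of the antioxidant response element (TGACNNNGC, either strand), found in 10.2% of all windows. A window lies before a RefSeq start, which can differ from the first base of the gene's span. The Por window (chr5:135688895-135689144) lies inside the span given for Por, and the Aifm2 window lies inside that of Aifm2. These matches are letters in a window, not binding sites.

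Acsl4 was 25.23, 22.49, 21.39 and 15.74 TPM in control mice and 12.20, 14.65, 8.35 and 12.47 TPM in Cd mice. The highest Cd mouse lay about 1 TPM below the lowest control. The difference was a log2 fold change of -0.79 (SE 0.256, limma adjusted p 0.0290). It lost its call without control mouse 27 (adjusted p 0.0777), 28 (0.0682) or 29 (0.0636) or Cd mouse 5 (0.0993), and after centring on the median (0.0582), with the direction kept.

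Acsl4 in Cd+Se mice was 26.01, 30.02, 13.28 and 20.19 TPM, and in Se mice 23.40, 35.68, 16.11 and 18.92 TPM. Mouse 15, at 13.28 TPM, lay inside the Cd range, so the Cd+Se and Cd groups overlapped. Against Cd, Cd+Se gave 0.82 on the log2 scale (SE 0.256, limma adjusted p 0.0403), and adjusted p ranged up to 0.134 when 1 mouse was left out, the highest being without Cd mouse 5. The call was also lost without Cd mouse 1 (0.0541) or 6 (0.0633), Cd+Se mouse 13 (0.0820), 14 (0.122) or 16 (0.0650), or control mouse 28 (0.0513) or 29 (0.0523). It was lost as well after quantile normalization (0.0529) and centring (0.0594), with no filter on low values (0.102) and in the fit on the compared groups only (0.0870).

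Acsl3 was 10.86, 10.43, 9.02 and 6.80 TPM in control mice and 23.07, 29.30, 19.19 and 13.02 TPM in Cd mice. Every Cd mouse was above every control. The mean rose from 9.28 ± 1.83 to 21.1 ± 6.83 TPM (SD, n = 4), with a log2 fold change of 1.07 (SE 0.329, limma adjusted p 0.0222). Without control mouse 29 (adjusted p 0.0501) or 30 (0.0624) or Cd mouse 2 (0.0652) the call was lost. It was lost as well with no filter on low values. Quantile normalization and centring on the median gave larger changes (1.24 and 1.29).

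Acsl3 in Cd+Se mice was 19.67, 16.11, 8.95 and 10.49 TPM, which overlapped both the control and the Cd mice. Its log2 fold change against Cd was -0.59 (95% interval -1.29 to 0.11, limma adjusted p 0.224). Se mice had 9.86, 30.28, 11.57 and 9.29 TPM, where mouse 40 reached the level of the highest Cd mouse. The log2 fold change of Se against control was 0.51 with mouse 40 and 0.14 without it, and neither passed the test.

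Within each mouse the ratio of Acsl3 to Acsl4, both in TPM, separated the Cd group from the others. It was 0.430, 0.464, 0.422 and 0.432 in control mice and 1.89, 2.00, 2.30 and 1.04 in Cd mice. In Cd+Se mice it was 0.756, 0.537, 0.674 and 0.520, and in Se mice 0.421, 0.849, 0.718 and 0.491. Acsl3 was the higher of the pair in all 4 Cd mice and the lower in the other 12. Each gene alone had separated Cd from control mice, in opposite directions, so the ratio was bound to separate these groups. A ratio within a library is the same under any single scaling factor per library, though not under quantile normalization, and it shows unequal change, not which of the 2 genes changed.

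**Figure D2:**
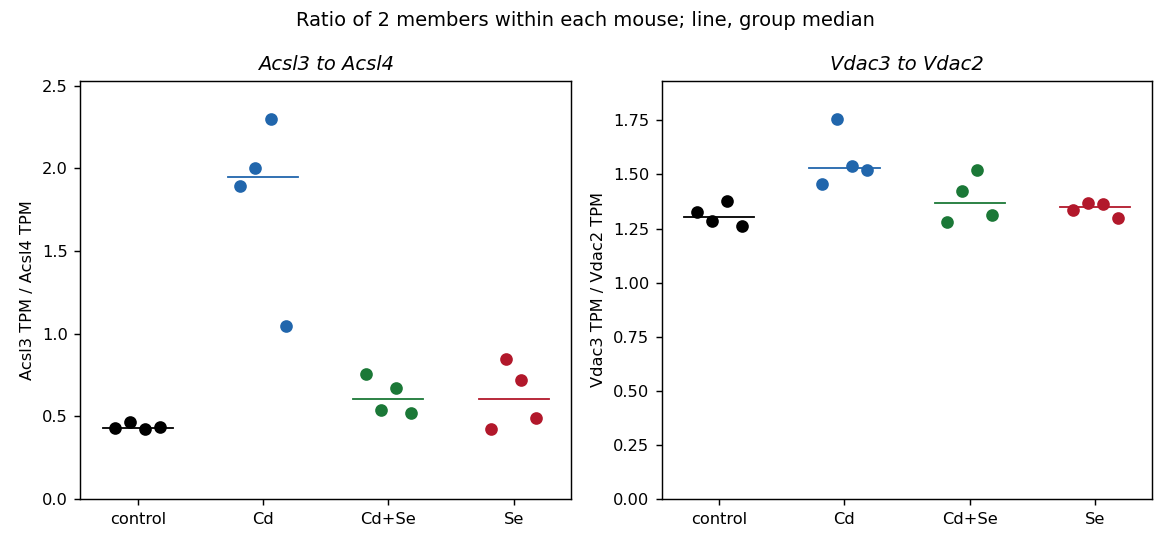
Ratio of TPM within each mouse (y axis, from 0), Acsl3 to Acsl4 on the left and Vdac3 to Vdac2 on the right, by group (x axis); each point is 1 mouse and the line is the group median. Cd mice span 1.04 to 2.30 for Acsl3 to Acsl4, and all other mice lie between 0.421 and 0.849.

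Lpcat3 encodes the acyltransferase that inserts polyunsaturated chains into lysophospholipids, the step after activation by Acsl4. It was 50.62, 45.17, 41.78 and 42.34 TPM in control mice and 66.71, 61.53, 53.30 and 44.64 TPM in Cd mice. Of the Cd mice, 3 were above all controls and 1 was not. The log2 fold change was 0.31 (95% interval -0.12 to 0.74, limma adjusted p 0.256), and it passed the test after centring on the median (0.53, adjusted p 0.0332). In Cd+Se mice the levels were 68.09, 51.39, 36.46 and 35.25 TPM, from above every Cd mouse to below every control, and in Se mice 35.85, 62.78, 43.77 and 42.24 TPM. Cd+Se against Cd gave -0.27 on the log2 scale (95% interval -0.70 to 0.16, limma adjusted p 0.364). An exon of Emg1 on the opposite strand overlaps Lpcat3 over 334 bases, and at 42.9 TPM Emg1 was about as high. Whether the counting used strand is not given, so a part of either level could belong to the other. Of the other members, Acsl3 overlaps Utp14b on the same strand (140 bases, 1.18 TPM). Aifm2 and Vdac2 overlap H2afy2 (233 bases, 0.442 TPM) and Comtd1 (25 bases, 3.59 TPM) on the opposite strand.

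Aifm2 encodes FSP1, which reduces coenzyme Q at the plasma membrane with NAD(P)H. It was 17.74, 13.76, 13.49 and 13.33 TPM in control mice, with mouse 27 apart from the other three, and 10.50, 9.10, 8.42 and 9.33 TPM in Cd mice. No Cd mouse reached the lowest control. The log2 fold change was -0.59 (SE 0.204, limma adjusted p 0.0394). That call was lost in every fit that left out 1 control mouse, in those without Cd mouse 2, 5 or 6, and under quantile normalization and centring; adjusted p then lay between 0.0548 (without control 30) and 0.150 (centring), and the value between -0.62 and -0.37. Nor was Aifm2 called in Cd against control with no filter on low values. In Cd+Se mice Aifm2 was 10.64, 11.20, 23.02 and 12.28 TPM, all above the highest Cd mouse, by 0.14 TPM for the lowest of them. Compared with Cd, Cd+Se mice differed by 0.50 on the log2 scale (95% interval 0.07 to 0.93, limma adjusted p 0.102), and 0.26 without mouse 15 (adjusted p 0.272). Se mice had 11.95, 21.33, 15.68 and 15.71 TPM.

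Dhodh encodes the inner mitochondrial enzyme that oxidises dihydroorotate in pyrimidine synthesis and passes the electrons to coenzyme Q. It had the lowest levels of the 10 genes, 5.20, 4.02, 4.40 and 5.29 TPM in control mice and 3.79, 3.09, 3.03 and 3.46 TPM in Cd mice. The groups did not overlap, and the log2 fold change was -0.40 (SE 0.145, limma adjusted p 0.0487). That p stood at the edge of the threshold, and 13 of 24 alternative settings moved it over, up to 0.299 after centring. The mice whose omission did so were control 27, 29 and 30, Cd 2, 5 and 6, Se 41 and 44 and Cd+Se 13 and 15, with adjusted p between 0.0510 and 0.117. Cd+Se mice had 3.44, 4.99, 4.24 and 3.17 TPM, which reached into the Cd and the control ranges, and Se mice had 3.46, 5.62, 4.04 and 4.84 TPM. The log2 fold change of Cd+Se against Cd was 0.18 (95% interval -0.13 to 0.49, limma adjusted p 0.405). Quantile normalization gave -0.02 and centring -0.01.

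Sat1 encodes the acetyltransferase that starts polyamine breakdown and has been tied to lipid peroxidation through a lipoxygenase, and Sat2 encodes a related acetyltransferase. Sat1 was 100.82, 81.97, 67.17 and 85.87 TPM in control mice and 114.27, 112.19, 83.20 and 97.43 TPM in Cd mice. The groups overlapped, and the log2 fold change was 0.28 (95% interval -0.13 to 0.69, limma adjusted p 0.292), against 0.50 after centring on the median (adjusted p 0.0216). Sat1 in Cd+Se mice was 127.77, 95.15, 106.77 and 105.14 TPM, 3 of them above every control, and in Se mice 58.12, 124.93, 74.22 and 91.68 TPM. Cd+Se against Cd gave 0.10 on the log2 scale (95% interval -0.31 to 0.51, adjusted p 0.758), and -0.10 after centring. Sat2 ranged from 9.44 to 11.87 TPM in controls, 11 to 14.78 in Cd, 9.38 to 12.42 in Cd+Se and 9.08 to 12.81 in Se. The ratio of Sat1 to Sat2 within mice did not separate Cd from control mice. It was 5.98 to 10.7 in controls, 7.56 to 8.42 in Cd, 8.81 to 11.2 in Cd+Se and 5.24 to 13.8 in Se. Against control, Cd gave Sat2 a log2 fold change of 0.25 (95% interval -0.02 to 0.51, limma adjusted p 0.154), and it passed after quantile normalization (0.44, adjusted p 0.0274) and centring (0.47, 0.0196).

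Vdac2 and Vdac3 encode channels of the outer mitochondrial membrane, both reported targets of the ferroptosis inducer erastin. Vdac2 was 69.55, 64.25, 66.99 and 68.15 TPM in control mice and 61.80, 49.69, 42.35 and 53.26 TPM in Cd mice. The control mice were close together and all above the Cd mice, and Cd mouse 5 was lowest. The log2 fold change was -0.38 (SE 0.116, limma adjusted p 0.0213), which was -0.29 without Cd mouse 5 (adjusted p 0.0597), -0.37 without control mouse 27 (0.0507) and -0.16 after centring (0.105). Vdac2 in Cd+Se mice was 57.57, 59.40, 53.38 and 66.07 TPM and in Se mice 62.25, 75.53, 60.98 and 71.42 TPM, with a Cd+Se log2 fold change against Cd of 0.20 (95% interval -0.05 to 0.44, adjusted p 0.253).

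Vdac3 ranged from 82.47 to 92.29 TPM in controls, 65.27 to 89.85 in Cd, 73.58 to 86.65 in Cd+Se and 83.02 to 103.44 in Se. Its log2 fold change was -0.13 in Cd against control (95% interval -0.37 to 0.11, adjusted p 0.390) and 0.09 after centring, so its direction depended on the scaling. In Cd+Se against Cd it was 0.02 (adjusted p 0.926), and -0.18 after centring (adjusted p 0.0496). Within mice the ratio of Vdac3 to Vdac2 was 1.26 to 1.38 in controls, 1.45 to 1.76 in Cd, 1.30 to 1.37 in Se and 1.28 to 1.52 in Cd+Se.

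**Figure D3:**
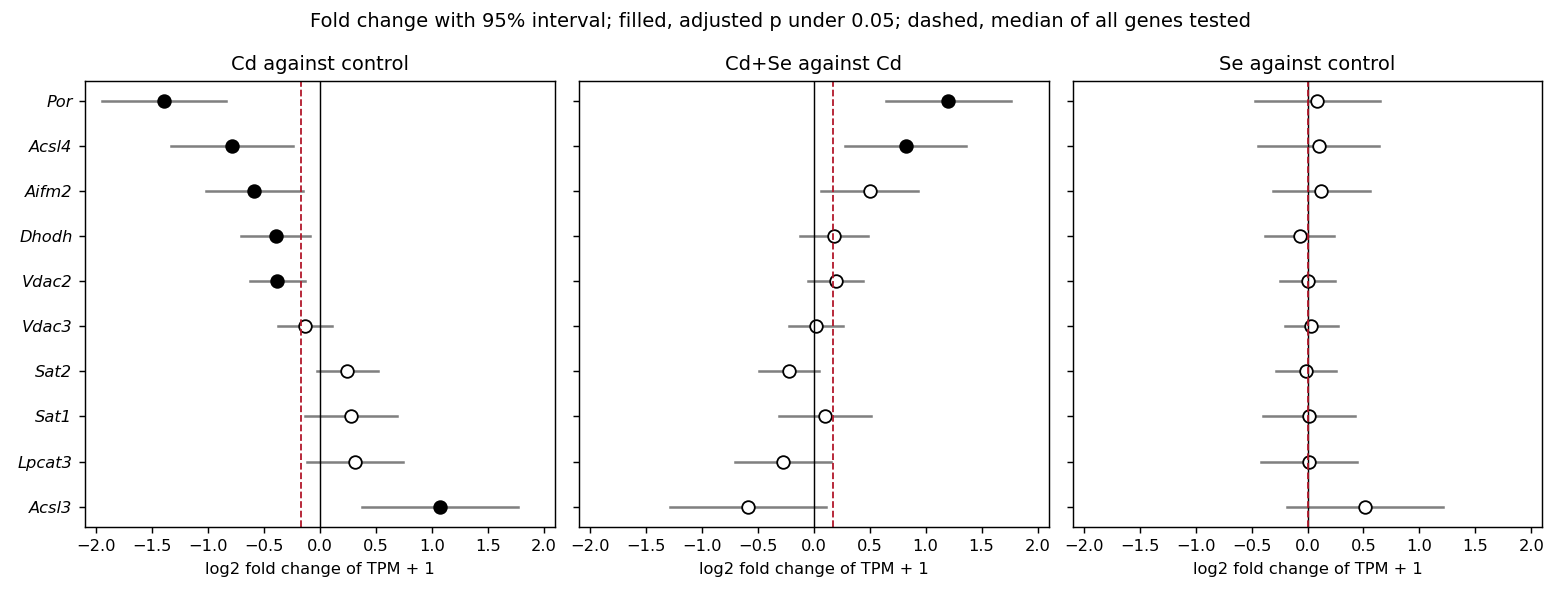
Log2 fold change of TPM + 1 (x axis) of the 10 genes (y axis) with 95% intervals, for Cd against control, Cd+Se against Cd and Se against control; filled points have an adjusted p under 0.05, and the dashed line is the median of all genes tested. The first 2 panels share the Cd mice: Por is at -1.39 and 1.20, Acsl3 at 1.07 and -0.59.

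The groups of Cd and control mice did not overlap for 6 of the 10 genes, the same 6 that limma called, each with an exact two-sided permutation p of 0.0286, the smallest that 4 against 4 allows. Among all genes tested, 34.2% did not overlap. Cd+Se and Cd mice did not overlap for Por and Aifm2, against 19.2% of all genes. When the 4 groups were ordered by mean log2 level within each gene, Cd was lowest for Por, Acsl4, Aifm2, Dhodh, Vdac2 and Vdac3 and highest for Acsl3, Lpcat3 and Sat2. Of 30 neighbouring pairs of groups in these orders, 3 had an exact two-sided permutation p of 0.0286 (Cd below control for Acsl4, Cd below Cd+Se for Aifm2 and Por), each 0.286 after adjustment over the 30. The other 27 pairs overlapped and had an exact permutation p of at least 0.0571.

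None of the 10 genes passed the limma test in Cd+Se against control (0.484% of all genes passed), Cd+Se against Se (0.714%) or Se against control (0.0%), and none had an unadjusted limma p under 0.05 in these. In Cd+Se against control the 95% interval was -0.75 to 0.37 for Por, -0.51 to 0.58 for Acsl4 and -0.21 to 1.18 for Acsl3, so differences of these sizes could not be told from none with 4 mice a group. In Se against control, where 454 of all genes had an unadjusted p under 0.05, the largest value was the 0.51 of Acsl3. The interaction of Cd and Se was past the threshold for 0 of the 10 genes by limma, against 1.04% of all genes, and 2 (Por and Acsl3) had an unadjusted p under 0.05. The 122 genes behind that share ranged from 2 (without control mouse 29) to 348 (without Se mouse 40) when 1 mouse was left out. It was -1.10 for Acsl3 (SE 0.465, limma adjusted p 0.193) and 0.72 for Acsl4 (SE 0.362, limma adjusted p 0.262). Without both Cd+Se mouse 15 and Se mouse 40, a setting added after the data were seen, it passed for Por (1.11, limma adjusted p 0.0415) and Acsl4 (1.15, limma adjusted p 0.0475).

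The rest of the pathway was read from 66 other genes, of which 49 were tested. In Cd against control 2 rose and 14 fell, with a median log2 fold change of -0.28. Of all genes tested, 30.8% were called in that comparison, 685 up and 2934 down, with a median of -0.17. After centring on the median, 8 rose and 7 fell, and after quantile normalization 4 rose and 12 fell, so the split depended on the scaling. Among the other genes of lipid activation and remodelling, 4 of 11 tested fell and none rose. Acsl1, the main acyl-CoA synthetase of hepatocytes, had a log2 fold change of -1.09 (limma adjusted p 0.000746), Agps of ether lipid synthesis -0.70 and the phospholipase Pla2g6 -0.62, and each was also called under both other scalings. Among 5 tested genes of lipid oxidation, Cybb, a subunit of the phagocyte NADPH oxidase, fell (-0.55), though not after centring. All listed lipoxygenase genes were under the filter, and Alox12b was listed at 0 in every library.

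Of 20 genes of radical quenching and coenzyme Q, 2 rose and 5 fell in Cd against control. Gpx4, which reduces phospholipid hydroperoxides, rose by 0.46 (limma adjusted p 0.0384), and the microsomal glutathione transferase Mgst1 by 0.33 (0.0139). Coq5, a methyltransferase of coenzyme Q synthesis, fell by 0.82 (0.000680), and Gpx4, Mgst1 and Coq5 kept these calls under both other scalings. Vkorc1l1 (-0.48) and Coq3 (-0.44) fell but passed neither after quantile normalization nor after centring. Of 8 genes of polyamine turnover beside Sat1 and Sat2, 3 fell and none rose: Odc1, the first enzyme of polyamine synthesis (-1.21, limma adjusted p 0.000144), its activator Azin1 (-0.85) and the spermidine synthase Srm (-0.71); Srm was not called after centring. Vdac1 fell by 0.51 on the log2 scale, the 1 of 3 tested outer membrane genes to do so, and 0 of 2 other genes of pyrimidine synthesis passed, with log2 fold changes that had a median of -0.44.

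In Cd+Se against Cd, 4 of the 49 other genes rose and 1 fell, against 15.9% of all genes called. Odc1 rose by 1.01 (limma adjusted p 0.00316), Cybb by 0.67 (0.0147), Agps by 0.61 (0.0168) and Azin1 by 0.59 (0.0169), and Pebp1, a partner protein of 15-lipoxygenase, fell by 0.38 on the log2 scale (0.0214). After quantile normalization the same 4 rose and 5 fell, among them Mgst1 but not Gpx4. After centring the same 4 rose and 9 fell, among them Gpx4 and Mgst1. In the main fit Gpx4 was at -0.17 (limma adjusted p 0.470) and Mgst1 at -0.27 (0.0579), and neither passed. Acsl1, at 0.54 (adjusted p 0.0557), did not pass.

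Markers of other liver cells differed between the groups too. All 6 Kupffer cell markers fell in Cd against control, 5 of them also after quantile normalization and after centring (Cd5l was not called there), and their summed level was 109-136 TPM in control mice, 36.8-57.8 in Cd, 61.6-151 in Se and 31.3-67.7 in Cd+Se. In Cd+Se against Cd none of the 6 passed the limma test. Markers of other cells did pass in that comparison: the hepatocyte genes Cps1 (0.87) and Hnf4a (0.58), the macrophage genes Adgre1 (0.78) and Cd68 (0.63) and the endothelial gene Lyve1 (1.09) rose, and the hepatocyte gene Apoc3 fell (-0.52). Adgre1 was not called after centring, and Cd68 neither then nor after quantile normalization. Summed neutrophil markers were 5.84-15.8 TPM in control, 32.2-40.9 in Cd, 5.36-9.56 in Se and 44.4-73.3 in Cd+Se mice. Of 8 hepatocyte markers, Apoc3 rose (0.43) and Cps1 (-1.36) and Hnf4a (-0.81) fell in Cd against control. In the same comparison the monocyte and macrophage markers split: Ly6c2 (0.66) and Ccr2 (0.56) rose, and Adgre1 (-1.24) and Csf1r (-0.83) fell. The endothelial genes Stab2 (-0.62) and Kdr (-0.90) and the stellate cell gene Reln (-0.93) fell too. No marker list had a defining gene at 0 in every library. The part of these cells in the levels of the 10 genes was not tested.

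**Figure D4:**
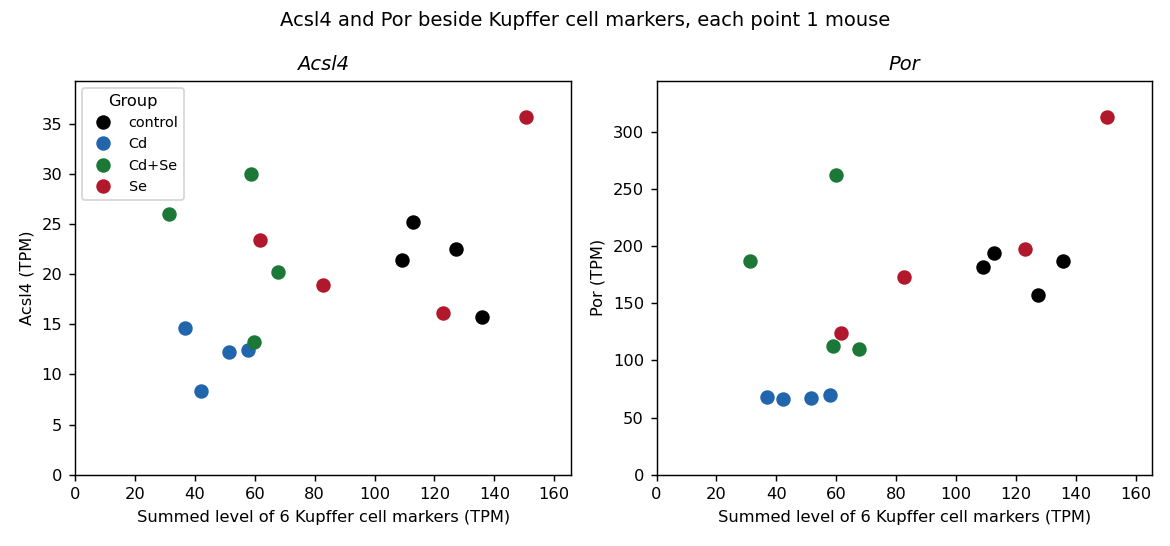
Level in TPM (y axes, from 0) of Acsl4 and Por against the summed TPM of 6 Kupffer cell markers (x axis); each point is 1 mouse, coloured by group. Cd and Cd+Se mice overlap along the x axis (36.8-57.8 and 31.3-67.7 TPM). For Por the 4 Cd mice lie below all Cd+Se mice, and for Acsl4 Cd+Se mouse 15 (13.28 TPM) lies inside the Cd range. Whether either gene follows the markers was not tested.

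Across the 16 libraries, the gene most like each member by Pearson's r of log2(TPM + 1) was found among all other genes tested. For Acsl3 it was Hmgcs1, an enzyme of cholesterol synthesis (r = 0.943), for Lpcat3 Erg28, another sterol synthesis gene (0.951), and for Acsl4 the nuclear exporter Xpo1 (0.962). It was Siae for Por (0.942), Glrx, a glutaredoxin, for Aifm2 (0.945), Dis3l for Vdac2 (0.972), Pak1ip1 for Vdac3 (0.938), Vamp3 for Sat1 (0.941), Ankrd9 for Dhodh (0.905) and Gm16548 for Sat2 (0.816). Among the members themselves, r of Acsl3 with Lpcat3 was 0.855 over all libraries and 0.883 within groups, whereas Acsl3 with Acsl4 had 0.031 over all libraries and 0.754 within groups. These are descriptions over 16 libraries that share their groups and their scaling.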

How the data were processed

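Poly(A)-selected liver RNA was sequenced for 16 mice, and the authors deposited 1 table of TPM with a column for each mouse, although the sample titles name a pair of replicates each. The submitters' processing notes name fastp, HISAT2 and StringTie without versions, and a human build (GRCh38) although the gene identifiers are mouse, so the build behind the TPM is not known; coordinates are GENCODE M21 (GRCm38), matched by Ensembl ID. Strand use is not given in the sources used here. TPM are relative to each library's total, so a change in abundant genes shifts all others, and keep no depth.

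Groups came from the sample titles and labelled treatments. Nothing in the labels ties mice to a batch or pairs them. Levels were compared as log2(TPM + 1) in limma 3.58.1 (R 4.3.3), in 1 model of 4 group means with an intensity trend, over the 11766 genes averaging 1 TPM or more. P-values were adjusted over all of these, with a threshold of 0.05. The steps were tested on simulated data. Single genes were also compared with exact two-sided permutation tests over 70 arrangements (scipy 1.17.1, Python 3.11.15), and motifs were searched on both strands of 250 bases before each RefSeq start.

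The 10 genes and the gene lists were chosen with earlier results of these data known. Named besides them are the called genes of each list (up to 3 per direction), Gpx4, Mt1 as label check and the most correlated gene of each member; Acsl1 in Cd+Se against Cd, Alox12b, Cd5l and the called cell markers were named after their values were seen. Genes whose exons overlap those of a member are named as well. Of the listed genes, Tmem189 was not analysed here. Alternatives were a pseudocount of 0.1, no filter, a mean of at least 5 TPM, quantile normalization, centring on the median, protein-coding nuclear genes only, a fit on the compared groups only, no variance trend, and leaving out each mouse.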

Additional observations from a re-analysis of the deposited data

Results flagged for a closer look

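In 3 of the 40 sets of 4 mice (10 genes in 4 groups), the highest mouse lay far from the others by Dixon's test; chance gives about 2. For Acsl3 in the Se group the gap to the next mouse was 0.891 of the range (mouse 40, 30.28 against 11.57 TPM). For Aifm2 it was 0.902 in the control group (mouse 27, 17.74 against 13.76 TPM) and 0.868 in the Cd+Se group (mouse 15, 23.02 against 12.28 TPM).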

How the results depend on the processing

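Of 25 alternative settings, Por in Cd against control kept its call in all 25, Acsl3 in 21, Vdac2 in 22, Acsl4 in 19, Aifm2 in 15 and Dhodh in 11 of 24. The count of called members, 6 in Cd against control, was 2 with no filter on low values and 2 to 6 when 1 mouse was left out (2 without control 27, control 29 or Cd 5). In Cd+Se against Cd the count of 2 was 1 with no filter, 1 after quantile normalization, 2 after centring (Por, and Vdac3 in place of Acsl4), 0 in the fit on the compared groups only (limma; 3 members had an unadjusted p under 0.05) and 1 to 2 when 1 mouse was left out. The interaction count of 0 was 0 to 1 when 1 mouse was left out and 2 without mice 15 and 40. Directions reversed for Vdac3 in Cd against control after centring (0.0865), for Vdac3 in Cd+Se against Cd after quantile normalization (-0.0069), centring (-0.18), with protein-coding genes only (-0.0352) and with 1 mouse left out (-0.0790 to 0.0727), and for Dhodh (-0.0243 quantile, -0.0136 centring) and Sat1 (-0.10 centring) in Cd+Se against Cd; the cause was not tested. Over all genes, Cd against control called 685 up and 2934 down, 1710 and 2276 after quantile normalization and 2260 and 1804 after centring, as the median log2 fold change moved from -0.17 to -0.01 and 0.05; Cd+Se against Cd called 1600 up and 276 down, 1170 and 908, and 937 and 1272. The fit on the compared groups only called 66 genes in Cd+Se against Cd in place of 1876. No paired analysis was possible because the groups carry different mouse numbers. Unknown depth leaves the counting error of low genes such as Dhodh unmeasured.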
